A study of Mus musculus with 20 samples.

Results

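The longest genes of the mouse genome were followed from embryonic stem (ES) cells to embryoid bodies (EB), with and without the large subunit of the chromatin assembly factor CAF-1. A gene was taken when it was present in both histone mark tables and its locus in the RNA table spanned 400 kb or more, and 314 of 17759 genes with a locus (1.77%) met that rule. Their loci ran from 400.2 kb to 2961 kb with a median of 562 kb, against a median of 18.97 kb over all genes, and 52 of them reached 1 Mb. They lay on 20 chromosomes, with 29 on chromosome 1, 25 on chromosome 6 and 12 on the X chromosome. Both pairs of members that shared bases were neighbours whose listed loci overlap (Adamtsl1 with Sh3gl2, and Tmem117 with Nell2).

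Genes of this size are mostly intron. A polymerase needs hours to cross one, and many hours to cross the longest, and several are known as common fragile sites. Many encode synaptic adhesion molecules, ion channels, cadherins, matrix proteins and dystrophin-type linkers of the cytoskeleton, and most are silent in pluripotent cells. H3K27me3, trimethylation of lysine 27 of histone H3, is laid down by Polycomb repressive complex 2 (PRC2) and marks silent developmental genes, whereas H3K4me3 marks active or poised promoters. CAF-1 places newly made histones H3 and H4 on DNA behind the replication fork, and its p150 subunit is encoded by Chaf1a.

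All samples came from TL1 mouse ES cells grown in serum with LIF, either kept as ES cells or carried into EB without LIF. Each state was taken from wild-type cells and from cells in which p150 had been depleted with CRISPR/Cas9, called p150-depleted here. The number of clones behind the depleted cells is not given in the sources used here. RNA was measured in 2 libraries of each of the 4 groups. Nothing states that they came from separate cultures, so the p-values speak only to how far these libraries lie apart, possibly for technical reasons. H3K27me3 and H3K4me3 chromatin immunoprecipitation (ChIP) had 1 library of each group, from crosslinked chromatin that was cut with micrococcal nuclease and sonicated. The input libraries were not analysed here, so no mark value is corrected for input. The deposited mark tables are titled as RPKM on promoters, but H3K27me3 grew with the length of the whole gene: in wild-type ES cells its median was 0.374 in genes under 10 kb, 2.13 from 10 to 100 kb, 16.8 from 100 to 400 kb and 71.3 at 400 kb or more. H3K4me3 grew far less than length, with medians of 2.51, 11.7, 16.9 and 21.04. Which window a value covers is not settled by these sources. Values per kb of gene rest on reading H3K27me3 as a sum over the gene, and for H3K4me3 they fall with length, from a median of 0.568 to 0.0309 per kb. Ratios between libraries of the same gene do not use the length.

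Of the 314 genes, 241 had a promoter window in RefSeq (GRCm38.p6, the mm10 assembly; 250 bases before to 50 after the start, the outermost start where several were listed). CpG-rich promoters are the usual sites of H3K4me3 and of Polycomb recruitment, so the CG dinucleotides of 5 windows are shown in capitals (CG reads the same on both strands). The 5 genes were chosen after their values were seen: Pcdh7 and Maml3 for H3K27me3, Kif26b and Npas3 for RNA, and Dmd, the dystrophin gene, for the opposite RNA pattern. Sequences are written 5′ to 3′ on the gene's strand.
Pcdh7, chr5:57717831-57718130, plus strand: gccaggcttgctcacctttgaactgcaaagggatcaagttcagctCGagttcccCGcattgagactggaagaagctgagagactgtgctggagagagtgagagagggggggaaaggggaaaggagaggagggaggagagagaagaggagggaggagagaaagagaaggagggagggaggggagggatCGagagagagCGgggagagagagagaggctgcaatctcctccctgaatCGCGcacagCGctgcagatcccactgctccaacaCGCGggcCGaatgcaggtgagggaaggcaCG
Maml3, chr3:52104957-52105256, minus strand: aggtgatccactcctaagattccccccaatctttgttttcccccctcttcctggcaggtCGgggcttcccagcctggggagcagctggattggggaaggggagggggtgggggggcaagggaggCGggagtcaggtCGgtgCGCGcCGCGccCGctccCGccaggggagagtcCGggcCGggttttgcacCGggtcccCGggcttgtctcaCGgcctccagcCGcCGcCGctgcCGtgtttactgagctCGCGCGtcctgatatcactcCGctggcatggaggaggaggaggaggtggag
Kif26b, chr1:178528875-178529174, plus strand: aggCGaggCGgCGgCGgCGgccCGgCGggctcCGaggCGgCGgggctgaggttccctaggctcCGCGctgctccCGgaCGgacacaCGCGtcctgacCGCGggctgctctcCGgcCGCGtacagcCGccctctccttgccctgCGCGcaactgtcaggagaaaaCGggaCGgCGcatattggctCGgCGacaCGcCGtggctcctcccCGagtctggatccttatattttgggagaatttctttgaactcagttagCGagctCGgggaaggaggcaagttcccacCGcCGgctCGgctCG
Npas3, chr12:53248182-53248481, plus strand: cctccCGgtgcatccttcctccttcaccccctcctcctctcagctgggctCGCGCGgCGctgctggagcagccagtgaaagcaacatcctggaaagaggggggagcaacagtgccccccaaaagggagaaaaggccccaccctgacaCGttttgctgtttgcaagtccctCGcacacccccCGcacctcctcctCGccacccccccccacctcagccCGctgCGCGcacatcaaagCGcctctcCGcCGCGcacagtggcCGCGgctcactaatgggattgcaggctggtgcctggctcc
Dmd, chrX:82948620-82948919, plus strand: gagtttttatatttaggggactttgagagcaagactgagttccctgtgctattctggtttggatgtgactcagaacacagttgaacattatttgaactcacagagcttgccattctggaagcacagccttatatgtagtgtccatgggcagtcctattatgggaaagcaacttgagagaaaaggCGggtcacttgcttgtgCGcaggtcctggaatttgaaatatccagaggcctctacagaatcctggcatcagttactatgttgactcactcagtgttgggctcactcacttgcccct
The windows held 38 CG in Kif26b, 22 in Maml3, 18 in Npas3, 11 in Pcdh7 and 2 in Dmd. Over the 241 genes the median was 17 CG, against 13 over 17492 protein-coding genes, and 44.4% of the long genes held 20 or more against 36.1% of protein-coding genes. At least 1 CG was present in 98.3% of the windows of long genes and in 94.8% of those of protein-coding genes. The 105 windowed genes that stayed under 1 FPKM in every RNA library had a median of 12.0 CG, and the 126 that passed the FPKM filter had 21.0.

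H3K27me3 per kb varied less among the very long genes than among genes at large. In wild-type ES cells the median was 0.116 per kb with quartiles of 0.0787 and 0.163, against 0.0799 per kb with quartiles of 0.0299 and 0.229 over all genes. The distance between the quartiles was 0.724 times the median in the long genes and 2.49 times the median over all genes, so the long genes differed less among themselves. This was the narrowest library: the long genes had 1.07 in depleted ES cells, 1.07 in wild-type EB and 1.25 in depleted EB, against 2.69, 2.97 and 2.91 over all genes. The spread fell with length, from 3.42 under 10 kb to 2.63 and 1.29 in the 2 middle classes in wild-type ES cells, so it was not particular to the longest genes. The medians of the long genes were 0.115 in p150-depleted ES cells, 0.0797 in wild-type EB and 0.0849 in p150-depleted EB, so both EB libraries were below both ES libraries. Over all genes the same libraries gave 0.0771, 0.0692 and 0.0794. With 1 library of each group there is no replicate check on these differences. The H3K27me3 library of wild-type EB stood apart in its scaling: its values were multiples of 0.04, and those of the other 3 H3K27me3 libraries multiples of 0.02668. The long genes held a median of 1335 such steps in wild-type EB and of 2671, 2862 and 2099 in wild-type ES cells, depleted ES cells and depleted EB, and the part of this in the results below was not tested.

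The long genes held 20.4% of the H3K27me3 signal summed over all genes in wild-type ES cells, 21.1% in p150-depleted ES cells, 14.1% in wild-type EB and 16.7% in p150-depleted EB. They made up 23.8% of the summed gene length. Genes under 10 kb moved the other way, with 6.09% of the summed signal in wild-type ES cells and 12.7% in wild-type EB, and with 4.86% and 7.13% in the p150-depleted ES cells and EB, for 3.19% of the summed length. For H3K4me3 the long genes held 4.02%, 4.03%, 3.61% and 3.48% in the same order of wild-type ES, depleted ES, wild-type EB and depleted EB. Their H3K4me3 was thus a small share in every library.

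**Figure D1:**
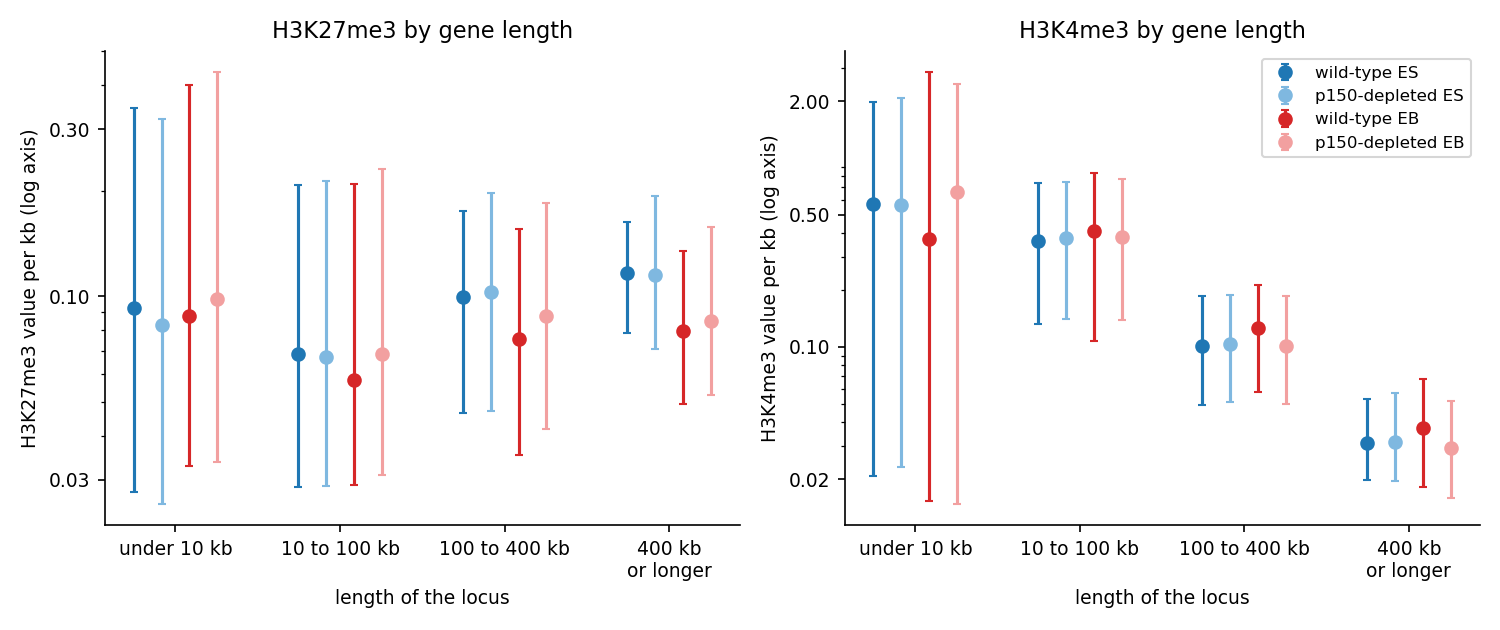
Median value per kb of H3K27me3 (left) and H3K4me3 (right) in 4 classes of locus length, on log axes, with bars from the lower to the upper quartile of genes and 1 library for each of the 4 groups. In genes of 400 kb or longer the H3K27me3 medians lie at 0.116 and 0.115 in the ES libraries and at 0.0797 and 0.0849 in the EB libraries, with narrower quartiles than in shorter genes.

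The highest H3K27me3 per kb, by the median of the 4 libraries, stood over Rbfox3, which encodes the neuronal splicing factor NeuN. Its values per kb were 0.492 in wild-type ES cells, 0.680 in p150-depleted ES cells, 0.818 in wild-type EB and 0.960 in p150-depleted EB, several times the median of the class in each library. The others of the 8 highest were Cdh4 (R-cadherin), Kif26b (a kinesin), Ephb1 (an ephrin receptor), Grik4 (a kainate receptor subunit), Hivep3 (a zinc finger factor), Fstl4 and Cacna1c (the pore subunit of an L-type calcium channel). Cdh4 had 0.278, 0.465, 0.398 and 0.545 per kb in the same order, so it too was higher in EB than in ES cells of either genotype. Kif26b went the other way in wild type, from 0.504 in ES cells to 0.239 in EB, and stood at 0.398 and 0.392 in the depleted ES cells and EB.

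At the other end were Lrrtm4 and B3galt1, whose deposited values were near 0 for both marks. Lrrtm4, a synaptic adhesion protein, had H3K27me3 values of 0.560, 0.720, 0.120 and 0.480 over a locus of 791 kb and was listed at 0 FPKM in 7 of 8 RNA libraries. Low values per kb also came from Fgfr2, Rasgef1b and Fam110b, whose listed loci of 2961 kb, 512 kb and 464 kb are far longer than their RefSeq lengths of 104 kb, 35.5 kb and 157 kb. In 7 of the 314 genes the locus exceeded the RefSeq length by over 1.5 times, and the gene model behind the ChIP values is not given, so values per kb of these 7 may be too low. RefSeq also gave 400 kb or more for 304 of the 314.

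The difference between EB and ES cells ran against gene length. In wild type the median log2 ratio of H3K27me3, EB over ES, was -0.49 in the very long genes (a ratio of 0.712), -0.05 over all genes and 0.58 in genes under 10 kb. Of the 312 long genes with a value of at least 1 in both libraries, 258 (82.7%) were lower in EB, against 52.6% of all genes. In the depleted cells the median was -0.34 and 268 of 312 were lower in EB, with 0.07 over all genes and 0.52 in genes under 10 kb. Among the long genes themselves the 227 of 400 to 800 kb had a wild-type median of -0.38 and the 85 longer ones of -0.63, and the corresponding medians in depleted cells were -0.28 and -0.48. The requirement of a value of 1 kept 312 of 314 long genes and 1622 of 5804 genes under 10 kb, so the short genes compared were those with most signal.

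**Figure D2:**
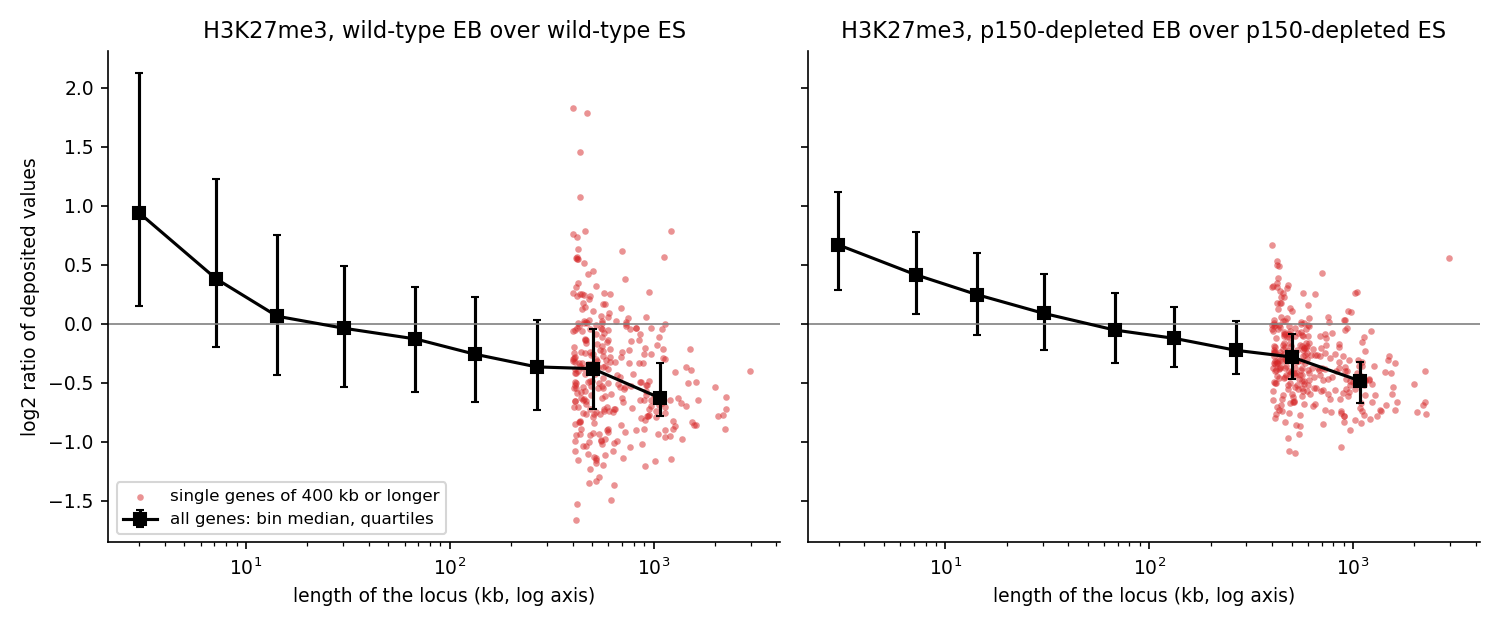
Log2 ratio of deposited H3K27me3 values, EB over ES, against locus length on a log axis for wild-type (left) and p150-depleted cells (right). Black squares are medians of all genes in 9 length bins with bars between quartiles, and red points are the single genes of 400 kb or longer. The medians go from 0.94 to -0.63 in wild type and from 0.67 to -0.48 in depleted cells.

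Counted by size, 127 of 312 long genes were at least 1.5-fold lower in wild-type EB than in ES cells relative to the median of all genes, where 22.6% of all genes were, and 10 were at least 1.5-fold higher, where 24.0% were. In depleted cells 100 of 312 were lower, where 11.7% of all genes were, and 0 were higher, where 14.5% were. The largest deficits in wild-type EB were in Pcdh7, a protocadherin, Maml3, a coactivator of Notch signalling, Cdk14, a cyclin-dependent kinase, Fstl5, Skint6 and Psd3. Pcdh7 (chr5:57717967-58133230) had values of 78.2 in wild-type ES cells, 63.6 in depleted ES cells, 24.6 in wild-type EB and 36.5 in depleted EB. Maml3 (chr3:51685907-52105076) had 128.9, 201.3, 44.8 and 153.3 in the same order, so the wild-type EB library alone was low. Skint6 was listed at 0 FPKM in all 8 RNA libraries and its H3K27me3 was 17.7 in wild-type ES cells and 6.96 in wild-type EB.

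The genes above the others in wild-type EB were few. Bnc2, a zinc finger factor, had H3K27me3 values of 15.1 in wild-type ES cells, 15.95 in depleted ES cells, 53.7 in wild-type EB and 25.3 in depleted EB. Bcas3 had 48.9, 60.3, 168.8 and 74.3, and Sh3gl2, which encodes the endocytic protein endophilin A1, had 9.29, 10.8, 25.4 and 15.2. In these 3 genes the wild-type EB library stood apart from the other 3. Park2 (the ubiquitin ligase parkin) and Pde10a (a cyclic nucleotide phosphodiesterase) were also among the leading genes. Park2 had 205.7 in wild-type ES cells, 269.4 in depleted ES cells, 355.0 in wild-type EB and 258.4 in depleted EB.

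Bnc2 and Sh3gl2 lie within chr4:84275095-85639195, which was seen after the values were known. In that stretch 3 of 4 genes with a ratio were higher in wild-type EB than in ES cells, where 4742 of 10007 of all genes were. Bnc2 and Sh3gl2 are 2 of the 3 and led to the stretch, and Adamtsl1, the third, shares bases with Sh3gl2. The count was thus largely set by that choice. The only gene under 400 kb was lower, with a log2 ratio of -0.76.

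**Figure D3:**
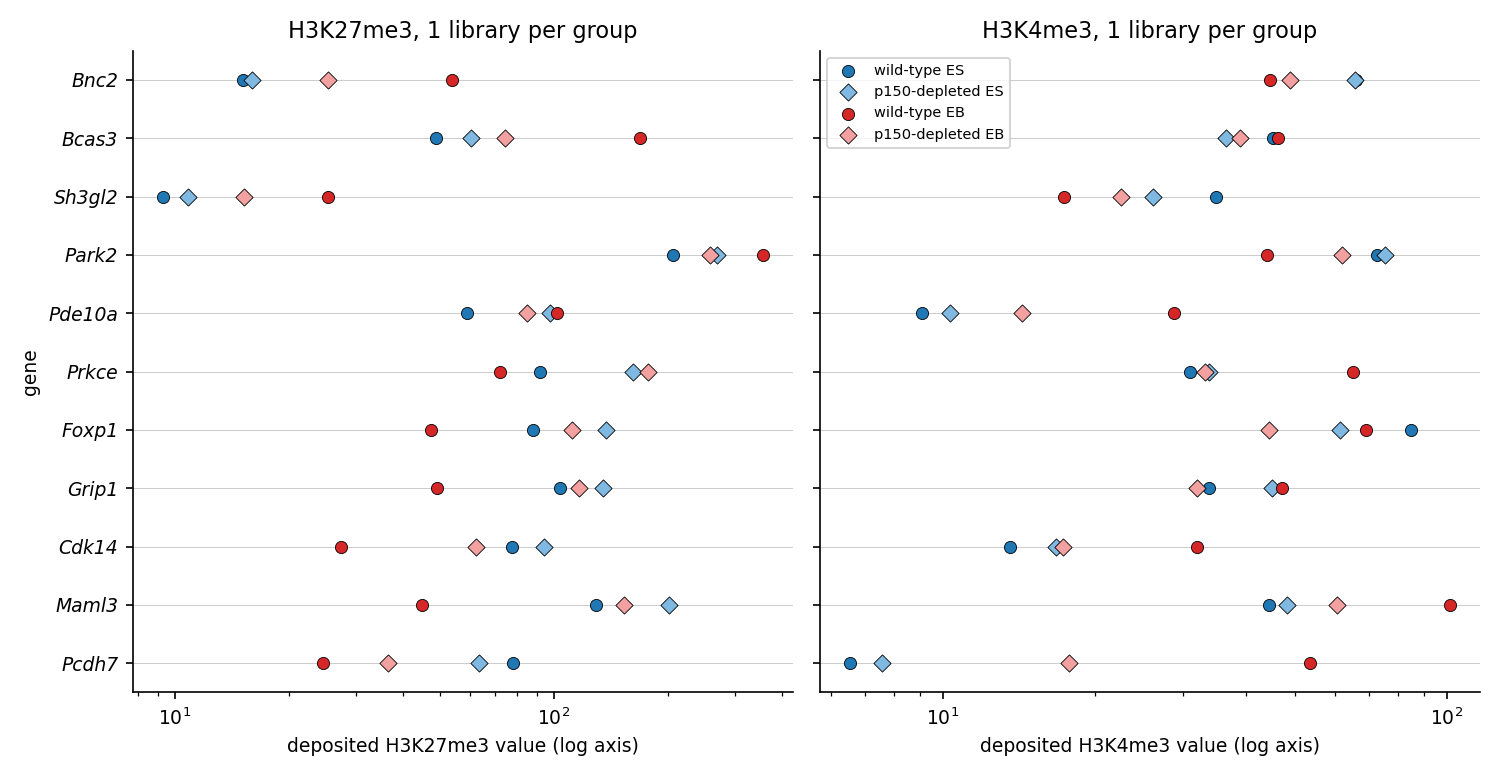
Deposited H3K27me3 (left) and H3K4me3 (right) values of 11 very long genes on log axes, with 1 point for the library of each group. Wild-type EB lies to the right of the other libraries in H3K27me3 for Bnc2 (53.7) and Bcas3 (168.8) and to the left for Maml3 (44.8) and Cdk14 (27.5).

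Between p150-depleted and wild-type EB the long genes as a class differed little in H3K27me3. The median log2 ratio was 0.12, or 0.01 relative to the median of all genes, and 31 of 312 were at least 1.5-fold higher relative to that median, where 14.8% of all genes were, and 9 were lower, where 18.6% were. The largest excess in depleted EB was in Maml3, Prkce (a protein kinase C), Grip1 (a synaptic scaffold), Foxp1 (a forkhead factor), Zfhx3 (a homeobox factor) and Maml2. Prkce had 72.2 in wild-type EB and 177.2 in depleted EB, with 92.0 and 161.6 in wild-type and depleted ES cells. Foxp1 had 47.4 and 111.8 in wild-type and depleted EB and 87.9 and 137.5 in the ES cells. In both genes the depleted library was above the wild-type one in ES cells as well. The genes with the largest deficits in depleted EB included Bcas3, Bnc2, Kcnn2, Sh3gl2 and Lrrc7, of which Bcas3, Bnc2 and Sh3gl2 are also among the 6 highest in wild-type EB over ES cells. Both comparisons use the same wild-type EB library.

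In ES cells the 2 genotypes were close. The median log2 ratio of H3K27me3, depleted over wild type, was 0.04 in the long genes and 0.01 over all genes, with 19 of 312 at least 1.5-fold higher, where 6.96% of all genes were, and 5 lower, where 8.80% were. Camta1, a calmodulin-binding transcription activator and 1 of the most strongly transcribed long genes, had 174.1 in wild-type and 322.8 in depleted ES cells, and 210.2 and 347.7 in wild-type and depleted EB. H3K27me3 over Camta1 was thus higher in the depleted library of each state.

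H3K4me3 did not scale with length among these genes: Spearman's rho across the 314 genes between value and length was from 0.03 to 0.18 in the 4 libraries, against 0.27 to 0.47 for H3K27me3 (genes share their library, and no p is given). Its values are therefore given whole. The highest stood over Etl4, Nav2, Camta1, Agap1, Ptprg and Auts2, with Etl4 at 151.5 in wild-type ES cells, 209.7 in depleted ES cells, 62.8 in wild-type EB and 192.6 in depleted EB. Wild-type EB was the low library in Etl4 and also in Utrn, the dystrophin relative utrophin, with 126.5, 91.1, 35.5 and 86.4 in the same order. Dst, the cytoskeletal linker dystonin, had 152.1, 108.0, 51.8 and 87.4.

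The median log2 ratio of H3K4me3 in wild-type EB over ES cells was -0.00 in the long genes and 0.21 over all genes. Relative to the median of all genes 57 of 312 were at least 1.5-fold higher, where 24.6% of all genes were, and 72 were lower, where 17.3% were. The highest was Pcdh7, with 6.54 in wild-type ES cells, 7.58 in depleted ES cells, 53.6 in wild-type EB and 17.8 in depleted EB. Sema6d, a semaphorin of axon guidance, had 6.35, 7.02, 26.4 and 11.8, followed by Rasgef1b and Fgf13. These genes had their highest H3K4me3 in wild-type EB and an intermediate value in depleted EB.

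In depleted over wild-type EB the median log2 ratio of H3K4me3 was -0.25 in the long genes and -0.16 over all genes, with 29 of 311 at least 1.5-fold higher, where 15.1% of all genes were, and 59 lower, where 10.8% were. The largest deficits were in Pcdh7, Pde4b (a cyclic AMP phosphodiesterase), Esrrg (an orphan nuclear receptor) and Mecom (a zinc finger factor of blood stem cells). Pde4b had 19.9 in wild-type and 7.44 in depleted EB, and Esrrg had 44.2 and 18.5. In ES cells 0 of 312 were 1.5-fold higher in depleted cells, where 1.82% of all genes were, and 1 was lower, where 1.72% were. Between depleted EB and depleted ES cells 3 of 311 were higher, where 6.83% of all genes were, and 25 were lower, where 3.88% were. More long genes were thus past 1.5-fold in H3K4me3 wherever the wild-type EB library was 1 of the 2 compared. The shares over all genes were larger in the same comparisons, so this was not particular to the long genes.

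RNA was given as FPKM, fragment counts scaled to transcript length and library depth. Most of the very long genes had little RNA in ES cells. The median of the 314 genes was 0.114 FPKM in wild-type ES cells, 0.126 in depleted ES cells, 1.11 in wild-type EB and 0.306 in depleted EB, against medians over all genes of 1.92, 2.36, 4.15 and 3.20. A group mean of 1 FPKM or more was reached by 78, 81, 160 and 112 of them in the same order. In 138 of 314 genes every library was under 1 FPKM, and 3 genes were listed at 0 throughout. The 10 genes kept as reference points because they are known for their length include the silent genes Csmd1, Lrp1b and Rbfox1. Lrp1b, an LDL receptor relative of 2058 kb, reached at most 0.0831 FPKM in any library. Its whole H3K27me3 values, which grow with gene length, were 170.1, 170.6, 99.0 and 101.5 in the same order.

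The share of all FPKM that fell on the long genes was 0.113% and 0.132% in the 2 wild-type ES libraries, 0.116% and 0.129% in depleted ES cells, 0.214% and 0.242% in wild-type EB, against 0.130% and 0.141% in depleted EB. Wild-type EB was above every other library. The highest means belonged to Snd1, an RNA-binding nuclease-domain protein, Camta1, Schip1, Exoc4 (an exocyst subunit), Etl4, Ptprg (a receptor tyrosine phosphatase), Utrn and Dst. Snd1 (chr6:28475139-28935162) had 95.5 and 111.8 FPKM in wild-type ES cells and 125.6 and 127.9 in wild-type EB. For Dst the ES libraries of a group lay far apart: wild type gave 17.2 and 43.0 FPKM, and depleted cells gave 20.8 and 45.4.

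Differences in RNA were tested with limma on log2(FPKM + 1) over all 8 libraries, in genes with at least 1 FPKM in 2 libraries or more. This kept 162 of the 314 long genes (51.6%) and 65.0% of all genes with a locus. Of the 162, 39 reached 1 FPKM only in wild-type EB libraries, so they had to be high there, and counts over the 162 do not describe all 314. Without any filter, both wild-type EB libraries were above both wild-type ES libraries in 210 of the 314 genes (66.9%), where 41.7% of all genes were, and below them in 37, where 26.2% were.

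Between wild-type EB and ES cells 111 of 162 long genes were called higher at an adjusted p under 0.05, where 36.1% of all tested genes were, and 12 were called lower, where 24.8% were. The median log2 change was 1.27 in the 162 genes and 0.12 over all tested genes. Either way, 75.9% of the 162 were called, where 60.9% of all tested genes were. Of the 50 long genes averaging 5 FPKM or more, 22 (44.0%) were called higher and 9 (18%) lower, against 36.6% and 29.5% of all genes at that level. The excess of higher over lower calls was thus smaller in the well-expressed long genes. Genes of 100 to 400 kb had 56.8% called higher and 14.95% lower, between the long genes and all genes. The count called higher fell when either wild-type EB library was left out, and the share over all tested genes at that setting is not given.

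The 8 largest rises were in Gpc6, Pcdh7, Cdk14, Robo2, Kif26b, Mecom, Edil3 and Npas3. Gpc6, a glypican of the cell surface (chr14:116925315-117976544), had 0.1696 and 0.188 FPKM in wild-type ES cells and 21.2 and 29.1 in wild-type EB (log2 change 4.45, SE 0.33, limma adjusted p = 6.42e-05). Pcdh7 had 0.00589 and 0.0254 in wild-type ES cells and 16.8 and 21.9 in wild-type EB (4.31, SE 0.34, limma adjusted p = 7.60e-05). Robo2, a receptor of the guidance factor Slit, had 0.0128 and 0.0169 in ES cells and 13.7 and 14.8 in EB. In these genes the EB libraries were far above the ES libraries with no overlap, and changes on this scale understate the fold of genes near 0.

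The 8 largest falls included Sh3gl2, Enox1, Camk1d, Erc2, Dmd, Zmat4 and Bcas3. Sh3gl2 fell from 22.4 and 16.1 FPKM in wild-type ES cells to 1.41 and 2.56 in wild-type EB (log2 change -2.77, SE 0.29, limma adjusted p = 0.000198). Enox1, a cell surface oxidase, fell from 30.45 and 28.7 to 3.22 and 4.88 (-2.62, SE 0.17, limma adjusted p = 4.61e-05). Dmd, whose full-length product dystrophin is a muscle protein and which also makes short products in other cells, had 14.2 and 17.2 in ES cells and 4.59 and 4.755 in EB (-1.55, SE 0.18, limma adjusted p = 0.000303). The Dmd window shown above is that of its outermost start in RefSeq, and gene-level FPKM does not tell the products apart. The call in Zmat4 was lost without wild-type ES replicate 2 (adjusted p = 0.0599) and without wild-type EB replicate 2 (adjusted p = 0.0717).

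**Figure D4:**
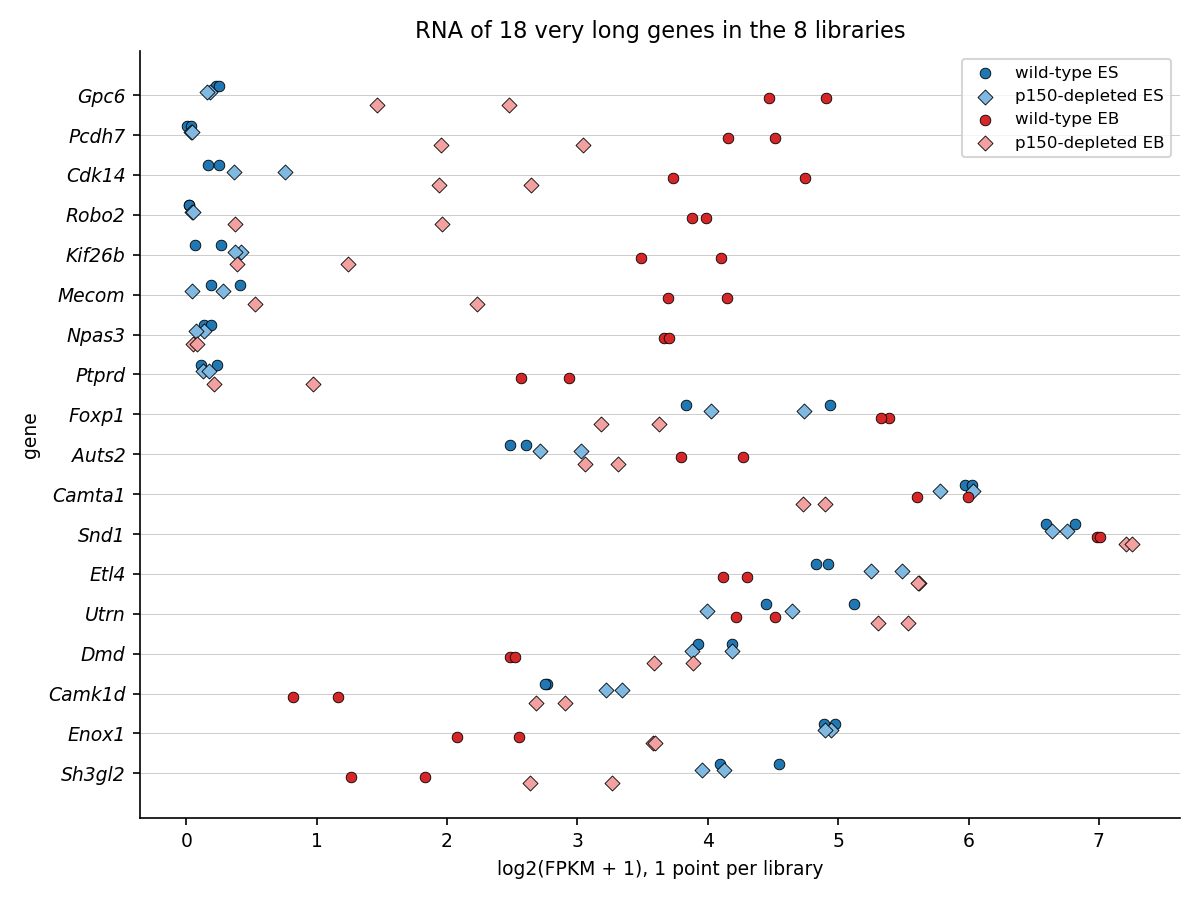
RNA of 18 very long genes as log2(FPKM + 1), with 1 point for each of the 8 libraries. From Gpc6 to Ptprd the wild-type EB libraries lie to the right of all others, as in Npas3 with 11.7 and 12.0 FPKM, and in Dmd, Camk1d, Enox1 and Sh3gl2 they lie to the left of all others.

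In EB the long genes had less RNA without p150. Of the 162 tested, 96 were called lower in depleted than in wild-type EB, where 25.9% of all tested genes were, and 16 were called higher, where 20.0% were, with a median log2 change of -0.96 against -0.06 over all tested genes. Either way, 112 were called, where 45.9% of all tested genes were. Without the filter, both depleted EB libraries were below both wild-type ones in 194 of 314 genes (61.8%), where 36.5% of all genes were, and above them in 45, where 27.2% were. Of those averaging 5 FPKM or more, 19 of 50 (38.0%) were called lower and 12 (24.0%) higher, against 25.6% and 24.2% of all genes at that mean. The counts called lower and higher both fell when either wild-type EB library was left out, and the count called higher also fell without depleted EB replicate 1. Shares over all tested genes at these settings are not given, so the falls are not a result about the long genes.

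The 8 largest falls were in Npas3, Kif26b, Robo2, Gpc6, Mecom, Tshz2, Sox6 and Nell1. Npas3, a transcription factor of the bHLH-PAS family (chr12:53248677-54072175), had 11.7 and 12.0 FPKM in wild-type EB, against 0.0373 and 0.0589 in depleted EB (log2 change -3.62, SE 0.15, limma adjusted p = 0.000112), so depleted EB was no higher than ES cells, at 0.0990 and 0.138 in wild type. Kif26b had 10.2 and 16.15 in wild-type EB, against 0.307 and 1.36 in depleted EB (-2.98, SE 0.32, limma adjusted p = 0.000865). Sox6, an SRY-type factor of cartilage, muscle and red cell development, had 13.9 and 12.35 against 1.01 and 2.72, and Nell1, a secreted matrix protein, had 3.43 and 5.58 against 0.0861 and 0.06255.

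The depleted EB libraries were unequal in these genes. Replicate 2 was above replicate 1 in 82 of the 96 genes called lower, with a median log2 difference of 0.40, and it was so in 58 of 96 for the wild-type EB libraries. The count called lower hardly changed without depleted EB replicate 2 and fell without replicate 1, and shares over all tested genes at these settings are not given. Heart and skeletal muscle markers moved with the same libraries: 10 of 12 were tested, all 10 were called higher in wild-type EB than ES cells and lower in depleted than wild-type EB, and Myod1 and Myog stayed near 0. Of this list 1 gene, Ryr2, is itself one of the 314. Their summed level was from 12.1 to 21.2 FPKM in the 4 ES libraries, 4895 and 3573 in wild-type EB, against 33.3 and 297.4 in depleted EB. Blood and endothelium markers had 12 of 12 called higher in wild-type EB and 11 lower without p150 in EB. Fibroblast markers had 9 of 10 higher and 9 lower. Endoderm markers had 8 of 9 and 5, and mesoderm markers 6 of 7 and 4, with 1 and 2 called higher without p150. Of all tested genes 36.1% were higher in wild-type EB and 25.9% lower without p150. In depleted EB over depleted ES cells 8 of 9 endoderm and 6 of 7 mesoderm markers were called higher. There 2 muscle, 5 blood and endothelium and 4 fibroblast markers were, beside 17.1% of all tested genes. Fibroblast markers summed to between 142.8 and 188.7 FPKM in ES cells, 968.3 and 1276 in wild-type EB, against 182.8 and 270.9 in depleted EB. Of the neuron markers 10 were tested, with 1 called higher and 5 lower in wild-type EB. Depletion of p150 in EB gave 3 higher and 1 lower. Of that list 2 are among the 314. The neuron markers summed to between 254.7 and 286.4 FPKM in ES cells, 44.9 and 46.3 in wild-type EB, against 130.5 and 138.9 in depleted EB. Most of the sum in ES cells and depleted EB was Stmn2, with 222.8 and 204.9 in wild-type ES cells and 97.2 and 95.4 in depleted EB. Of 10 neural progenitor markers 3 were tested, with 1 called higher and 0 lower in wild-type EB. Without p150 in EB 0 were called higher and 2 lower. Their sum was 28.7 and 34.2 FPKM in wild-type EB, against 5.28 and 10.04 in depleted EB. ES cell markers summed to 284.3 and 514.8 FPKM in wild-type EB, against 7514 and 5291 in depleted EB, beside 5613 to 6055 in ES cells. Much of this was Dppa5a, with 3052 and 2637 in wild-type ES cells and 5903 and 3983 in depleted EB. All 8 were called lower in wild-type EB than ES cells, where 24.8% of all tested genes were. All 8 were also called higher in depleted than wild-type EB, where 20.0% were. In depleted EB over depleted ES cells 4 of 8 were called lower, where 12.0% were, and 0 higher. The part of these shifts in the long-gene results was not tested, and fewer cells of a type and less RNA per cell cannot be told apart in bulk samples.

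The 8 largest rises without p150 in EB included Camk1d, Etl4, Sh3gl2, Enox1, Dmd, Immp2l and Utrn. Camk1d, a calcium-dependent kinase, had 1.24 and 0.766 FPKM in wild-type EB, against 6.48 and 5.43 in depleted EB (log2 change 1.80, SE 0.18, limma adjusted p = 0.000705). Etl4 had 16.4 and 18.7 against 48.2 and 47.9 (1.41, SE 0.12, limma adjusted p = 0.000445). Dmd had 13.8 and 11.04 in depleted EB, above both wild-type EB libraries and below both wild-type ES libraries. The calls in Immp2l and Utrn did not hold in all sets of 7 libraries: leaving out wild-type EB replicate 2 gave limma adjusted p-values of 0.137 and 0.0540.

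In ES cells depletion of p150 gave 0 calls among the 162 long genes by limma, where 0.421% of all tested genes were called higher and 0.0778% lower (0.499% either way), and 9 of the 162 had an unadjusted p under 0.05, against 13.6% of all tested genes. Without the filter both depleted ES libraries were above both wild-type ones in 65 of 314 genes, where 22.8% of all genes were, and below them in 40, where 13.6% were. Between depleted EB and depleted ES cells 37 were called higher, where 17.1% of all tested genes were, and 5 lower, where 12.0% were. Without the filter 133 of 314 were higher in both depleted EB libraries than in both depleted ES libraries, where 32.1% of all genes were, and 40 were lower, where 22.8% were. The count called higher fell without depleted ES replicate 1 and without depleted EB replicate 2. The count called lower fell without depleted ES replicate 1 and without either depleted EB library. The difference of the depletion effect between EB and ES cells was called negative in 80 of 162, where 18.6% of all tested genes were, and positive in 9, where 12.7% were. The count called negative fell most without either wild-type EB library. It also fell without either wild-type ES library, depleted ES replicate 2 or depleted EB replicate 1. For all these settings with 1 library left out, shares over all tested genes are not given.

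By role, the long transcription and chromatin regulators, from a grouping by symbol, had 18 of 25 tested genes called higher in wild-type EB than ES cells and 19 of 25 called lower without p150 in EB. Among shorter genes of that role 314 of 752 and 266 of 752 were so called, and among all tested genes 36.1% were higher and 25.9% lower. Receptor phosphatases, kinases and second messenger genes had 15 of 19 called higher and 12 of 19 called lower, against 145 and 115 of 250 shorter ones. Axon guidance genes had 7 of 7 and 6 of 7, against 36 and 35 of 52, and ion channels with their partners 6 of 7 and 6 of 7, against 37 and 26 of 67. These counts come from the 162 long genes that passed the FPKM filter, 39 of which did so through wild-type EB alone. Ptprd, the longest gene whose locus and RefSeq length match (2271 kb), is a receptor phosphatase of synapses and had 4.94 and 6.645 FPKM in wild-type EB, against 0.162 and 0.9575 in depleted EB. The genes grouped as fragile site, mitochondrial and metabolic enzymes had 3 of 15 called higher and 3 lower in EB, where 36.1% and 24.8% of all tested genes were, and 4 of 15 called higher and 1 lower without p150, where 20.0% and 25.9% were. Of the 5 LDL receptor and CSMD-type genes 0 passed the filter.

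Common fragile sites are stretches that break when replication is slowed. Of 15 genes known from such sites and with RNA values, 14 are very long, and Wwox, a tumour suppressor oxidoreductase, had 5.46 and 3.60 FPKM in wild-type ES cells and 6.60 and 6.70 in wild-type EB (limma adjusted p = 0.0874). Macrod2, a macrodomain protein, had 5.83 and 5.625 in ES cells and 5.52 and 5.48 in EB (adjusted p = 0.881). Of the 10 tested in this list, 2 were called higher, Rora and Ctnna3, where 36.1% of all tested genes were, and Dmd was called lower, where 24.8% were. H3K27me3 over Wwox was 205.5, 284.3, 143.2 and 215.2 and over Macrod2 181.2, 194.0, 124.6 and 136.0, in the order of wild-type ES, depleted ES, wild-type EB and depleted EB. Both had lower H3K27me3 in wild-type EB than in ES cells while their RNA did not pass the test. Park2 (limma adjusted p = 0.616) and Dab1 (limma adjusted p = 0.0610) of the same list also missed the test in RNA, and their H3K27me3 was higher in wild-type EB, with log2 ratios of 0.79 and 0.57.

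Genes that write or remove H3K27me3 were among the background lists. Of 13 genes of PRC2 and the H3K27 demethylases, 3 were called higher and 6 lower in wild-type EB than in ES cells, where 36.1% and 24.8% of all tested genes were, and 9 were called higher and 2 lower without p150 in EB, where 20.0% and 25.9% were. Jarid2, a PRC2 cofactor, had 193.2 and 207.8 FPKM in wild-type ES cells. It had 50.2 and 58.4 in wild-type EB, against 146.6 and 137.1 when p150 was depleted. Eed, a core subunit, had 220.3 and 195.9, then 50.03 and 47.5, then 133.3 and 113.0. Ezh2, the main methyltransferase, had 57.2 and 70.15 in ES cells and 57.7 and 53.7 in wild-type EB and was not called. Kdm6b, a demethylase, went opposite to Jarid2 and Eed, with 15.3 and 11.7, then 34.3 and 33.2, then 12.2 and 16.5. It was 1 of the 3 called higher in wild-type EB and 1 of the 2 called lower without p150 in EB. Of 21 genes of elongation, cohesin and topoisomerases 3 were called higher and 6 lower in EB, beside the same 36.1% and 24.8%. Top2b, a topoisomerase known for acting on long genes, had 3.13 and 5.62 in wild-type ES cells, rose to 26.5 and 27.2 in EB, and stood at 6.32 and 11.4 in EB without p150. The part of these genes in the H3K27me3 of the long genes was not tested.

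The median H3K27me3 ratio in wild-type EB over ES cells was below 0 in each class of RNA level, though not in the genes called lower in RNA. In the 138 genes under 1 FPKM everywhere the median log2 ratio in wild-type EB over ES cells was -0.57, in the 50 averaging 5 FPKM or more it was -0.27, and in the 126 in between it was -0.39. The 111 genes called higher in RNA had a median of -0.49, with 97 lower in EB, and the 152 that did not pass the FPKM filter had -0.54, with 128 of 150 lower. The 12 genes called lower in RNA had 0.08, with 6 of 12 lower. In depleted over wild-type EB the 96 genes called lower in RNA had a median of 0.35, with 13 of 96 below 0, and the 152 genes that did not pass the filter had 0.02. The H3K27me3 ratio of silent long genes was thus about as low as that of genes whose RNA rose, and their medians lay further apart in the comparison of genotypes.

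H3K4me3 ratios were set beside the RNA changes in the same way. The 111 genes called higher in wild-type EB had a median log2 ratio of 0.45 in H3K4me3, the 12 called lower had -0.63, and the 152 that did not pass the filter had -0.19. Across the 162 tested genes Spearman's rho between the RNA change and the ratio was 0.66 for H3K4me3 and -0.39 for H3K27me3 in wild-type EB over ES cells, and 0.55 and -0.34 in depleted over wild-type EB. It was 0.36 and -0.27 in depleted over wild-type ES cells, and 0.29 and -0.41 in depleted EB over depleted ES cells, so which mark had the larger rho differed between comparisons. Across all 314 genes rho between level and FPKM was from 0.57 to 0.66 for H3K4me3 and from -0.14 to 0.05 for H3K27me3 per kb. These describe the genes of single ChIP libraries, which share their depth, and no p is given.

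**Figure D5:**
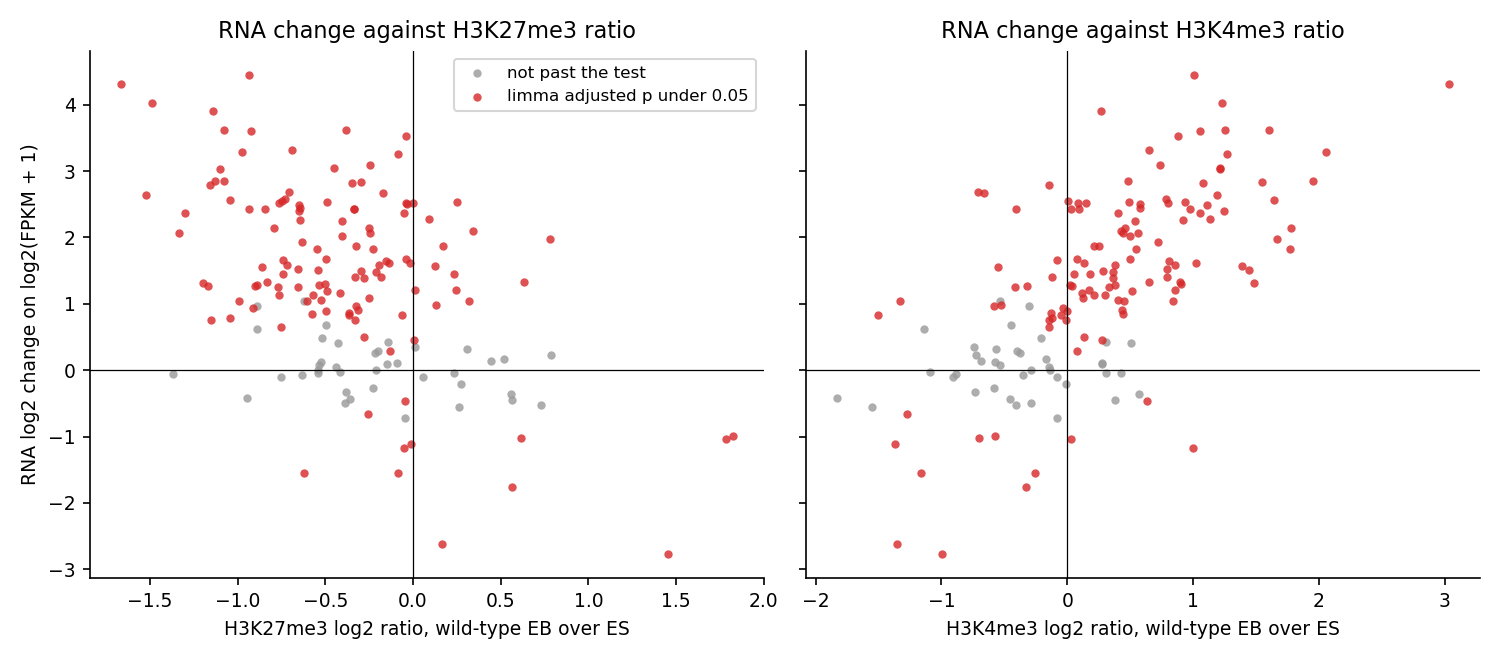
RNA log2 change against the log2 ratio of H3K27me3 (left) and H3K4me3 (right), wild-type EB over ES, for the 162 very long genes that passed the FPKM filter. Red points passed limma at an adjusted p under 0.05. The points slope downward for H3K27me3 (rho -0.39) and upward for H3K4me3 (rho 0.66), with Pcdh7 at the top right of the H3K4me3 panel.

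The marks and RNA were also set beside the CG content of the promoter window. The 107 long genes with 20 CG or more had a median H3K4me3 of 24.6 in wild-type ES cells and 29.4 in wild-type EB, the 92 with 5 to 19 CG had 18.2 and 18.5, and the 42 with under 5 CG had 17 and 14.9. Median FPKM in wild-type EB was 1.98, 0.452 and 0.709 in the same order and in wild-type ES cells 0.182, 0.0335 and 0.0941, so the middle class was the lowest in RNA. Median H3K27me3 per kb in wild-type ES cells was 0.123, 0.112 and 0.09997, and the median log2 ratio in wild-type EB over ES cells was -0.35, -0.51 and -0.68. Of the shown windows, Kif26b and Maml3 fall in the class with most CG, Npas3 and Pcdh7 in the middle one and Dmd in that with fewest.

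The length rule cuts through a continuous range. Just inside it Bnc2 (400.2 kb), Dst (400.4 kb) and Fam189a1 (400.5 kb) had H3K27me3 in wild-type ES cells of 15.1, 8.16 and 77.2, and just outside Plxdc2 (399.5 kb) and Trdn (396.2 kb) had 27.6 and 26.8. In wild-type EB these genes had 53.7, 9.80 and 73.8 inside and 13.04 and 17.2 outside. Both genes named outside were thus lower in wild-type EB than in ES cells, as was Fam189a1.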

How the data were processed

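RNA values were deposited by the authors as FPKM per gene for each of 8 libraries, and ChIP values were deposited by the authors as a signal per gene for each of 8 libraries. Those tables are titled as RPKM on promoters, but H3K27me3 grew with whole-gene length, so the window and scaling behind a value are unsettled, and values per kb treat it as a sum over the gene. The submitters' processing notes list DESeq2, HTSeq, Bowtie2, Cufflinks 2.2.1, STAR 2.6.0a and the mm10 build without saying what each was used for. No RNA read counts were given, and FPKM totals ran from 641692 to 781913. Columns were mapped by name and 0 value columns were left unmapped. Lengths are those of the mm10 loci of the FPKM table, with 1 added to the 0-based start, and where a symbol had several entries the one with most FPKM was kept.

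limma 3.58.1 in R 4.3.3, with a mean trend and Benjamini-Hochberg adjustment over 15428 genes, tested log2(FPKM + 1). ChIP had 1 library a group and no test: a ratio needed a value of 1 in both libraries, and 1.5-fold was counted relative to the median of all genes. The fit was also run on simulated data in which only genes above the lowest levels were changed. That run does not cover changes in genes near the FPKM filter. Gene-level FPKM of Chaf1a cannot check the depletion. The members and lists were chosen with earlier results of these data known. Genes named follow a rule: the 8 longest, the 3 genes on either side of 400 kb, the 8 highest and 8 lowest in H3K27me3 per kb, the 6 (H3K27me3) or 4 (H3K4me3) at either end of the ratios of the EB comparisons, the 6 highest in H3K4me3, the 8 largest called RNA changes each way in those comparisons (mean of 1 FPKM or more, groups not overlapping), the 8 highest in FPKM and 10 reference genes. Unnamed models were left out, some genes that meet the rule are not reported here, and genes of the background lists were chosen after their values were seen. Alternatives covered the pseudocount, the filter, quantile normalization, the length limit, the fold, a replicate block and leaving out each RNA library.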

Additional observations from a re-analysis of the deposited data

Results flagged for a closer look

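The effect of p150 depletion on RNA differed between EB and ES cells, by the limma interaction on log2(FPKM + 1), in 21 of the long genes named for RNA. Of all 162 tested long genes 54.9% were called in either direction, where 31.3% of all tested genes were. Many of the 21 were named for large called changes that use the same EB libraries, so this count is not a separate result about them. The difference, the effect in EB minus that in ES cells, was -3.56 in Npas3, -3.21 in Kif26b, -2.79 in Robo2, -2.65 in Gpc6, -2.41 in Mecom and -2.40 in Tshz2. It was -2.33 in Nell1, -2.30 in Cdk14, -2.21 in Edil3, -2.07 in Sox6 and -1.85 in Pcdh7. Smaller negative differences were found in Auts2 (-1.17), Camta1 (-0.89) and Schip1 (-0.52). The differences above 0 were in Etl4 (0.91), Bcas3 (1.11), Dmd (1.26), Camk1d (1.28), Enox1 (1.28), Utrn (1.52) and Sh3gl2 (1.68).

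Camta1 is the most strongly transcribed gene of this set. Wild-type ES cells gave 61.9 and 64.2 FPKM, against 54.1 and 64.4 without p150. Wild-type EB gave 47.5 and 62.9 FPKM, against 28.8 and 25.5 without p150, so the depleted EB libraries alone were low. The libraries whose muscle and ES cell markers stood apart are the same as in the comparison of depleted with wild-type EB, and their part was not tested.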

How the results depend on the processing

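Counts of called long genes by limma were recomputed with other settings. The shares over all genes at these settings are not given, here or for the marks below. The counts therefore do not show whether the long genes still differ from all genes. Restricted to a mean of at least 5 FPKM, 21 were higher in wild-type EB than ES cells, 20 lower without p150 in EB, 15 higher in depleted EB than depleted ES cells, and 12 negative in the difference of effects. At 500 kb or longer the counts were 66 higher and 7 lower for wild-type EB over ES cells, 10 higher and 59 lower for depleted over wild-type EB, 21 higher and 3 lower for depleted EB over ES cells, and 5 positive and 52 negative in the difference of effects, from fewer genes by construction. Among genes at 1 FPKM or more outside wild-type EB, an alternative chosen after seeing the data, 72 were higher in wild-type EB and 58 lower without p150 in EB. The 39 genes left out held 39 of the calls higher and 38 of the calls lower, so these 2 counts follow from leaving them out. In the difference of effects 45 were negative. Without a filter 24 were higher in depleted EB than depleted ES cells, and after quantile normalization 14 were positive in the difference of effects, and the cause was not tested. With 1 library left out, the arm with a lone library is assumed to vary like the others. The counts were then 64 to 111 higher and 9 to 12 lower in wild-type EB over ES cells, 7 to 15 higher and 41 to 97 lower in depleted over wild-type EB, 15 to 39 higher and 2 to 6 lower in depleted EB over ES cells, and 6 to 10 positive and 16 to 83 negative in the difference of effects, with 0 calls in ES cells throughout. The labels' numbers give 2 libraries a group and no shared batch, and replicate differences correlated across genes between groups with r from 0.0678 to 0.311. With the number as a replicate block 113 were higher and 12 lower in wild-type EB, 15 higher and 98 lower without p150 in EB, 37 higher and 6 lower in depleted EB over ES cells, and 10 positive and 86 negative in the difference of effects.

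For H3K27me3 at 2-fold in place of 1.5-fold, 4 were higher and 29 lower in wild-type EB over ES cells, 9 higher and 2 lower in depleted over wild-type EB, 2 higher and 0 lower in depleted over wild-type ES cells, and 6 lower in depleted EB over ES cells. At 500 kb or longer 2 were higher in wild-type EB over ES cells, 20 higher and 2 lower in depleted over wild-type EB, and 8 higher and 2 lower in depleted over wild-type ES cells. On the deposited scale 1 was higher and 65 lower in depleted EB over depleted ES cells. Relative to the median of all genes the H3K27me3 medians became 0.013 for depleted over wild-type EB and -0.44 for depleted EB over ES cells. For H3K4me3 at 2-fold, 24 were higher and 22 lower in wild-type EB over ES cells, 8 higher and 9 lower in depleted over wild-type EB, 0 lower in depleted over wild-type ES cells, and 1 higher and 3 lower in depleted EB over ES cells. At 500 kb or longer the H3K4me3 median of wild-type EB over ES cells was -0.12, with 30 higher, and 18 were higher and 38 lower in depleted over wild-type EB, with 0 lower in depleted over wild-type ES cells. That count was also 0 where the RefSeq length had to reach 400 kb as well, an alternative chosen after seeing the data, and 2 were higher in depleted ES cells on the deposited scale. The 2-fold H3K4me3 counts in wild-type EB over ES cells were thus close, at 24 higher and 22 lower, where at 1.5-fold 57 were higher and 72 lower. The lack of ChIP replicates, input and read depth limits what the mark values can show.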
